A study of Mus musculus with 6 samples.

Results

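The genes described here are those of CD antigens, interleukin receptors, integrins, TNF receptors, Toll-like receptors, chemokine receptors and class I and II histocompatibility molecules, the proteins by which a blood cell senses cytokines, other cells and matrix. They were chosen by gene symbol, with earlier results of these data known. The symbol patterns took all CD names of the form Cd plus a number, and names that begin with Il plus a number and r, Itga or Itgb, Tnfrsf, Tlr, Ccr, Cxcr or H2-, and left out Cd47, Il3ra, Tnfrsf10b and Fas. These patterns fitted 257 genes of a mouse gene table. A few of them are no surface receptor, such as Itgb1bp1, Itgb3bp, Il1rn and H2-Ke6, and they stay in the family counts below. Of the 257 genes, 14 had at least 1 ac4C summit, among 1485 genes with a summit in all. These 14 carried 16 of 1876 summits.

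The measurements came from acRIP-seq, a pull-down of poly(A) RNA fragments with an antibody against N4-acetylcytidine (ac4C), followed by sequencing. The cells were wild-type 32D cells, a mouse bone marrow line kept in 10 ng/mL interleukin 3 (IL-3), on which the line depends, and all libraries share this culture. The study made 2 libraries with the ac4C antibody, 2 with control IgG and 2 of input RNA, and the labels do not say whether these came from separate cultures. The only values analysed are 1 list of peak summits, which by its entry names pools both ac4C libraries, so there is no replicate error, and how deeply each library was sequenced is unknown.

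In ac4C the base of a cytidine carries an acetyl group, which the acetyltransferase Nat10 adds to ribosomal RNA, transfer RNA and, as reported, mRNA. On mRNA the mark has been linked to transcript stability and to translation. Surface receptor mRNAs are translated at the endoplasmic reticulum, and their products decide which growth factors, chemokines and matrix proteins a hematopoietic cell can respond to. The question here is which of these mRNAs carried listed summits, in which region of the transcript, and how tall the summits were.

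Each summit has a fold enrichment, which is the authors' value from their peak caller. All folds were whole multiples of 0.475, to within 0.00104 of a multiple, so each fold corresponds to a number of overlapping fragments, called the pile-up here, over a constant background of 1.11 fragments. The fold therefore measures the height of the pull-down and has no term for transcript abundance, input RNA or IgG. A taller summit cannot be told apart from a more abundant mRNA. Intervals on the pile-up below are exact Poisson 95% intervals; they cover counting error only and treat fragments as independent, which PCR copies are not.

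The tetraspanins had the tallest summit among these genes. Tetraspanins are small membrane proteins that gather integrins and other receptors into membrane domains. Cd53, a tetraspanin found across leukocytes, had 1 summit at nt 881 of ENSMUST00000038845, in the 3' untranslated region, with a fold of 69.8 and a pile-up of 146 fragments (123 to 172). It ranked 26 among the 1485 genes by highest fold. Cd63, a tetraspanin of late endosomes and secretory granules, had 1 summit in coding sequence at nt 933, with a fold of 25.6 and 53 fragments (39.7 to 69.3). Cd37, a tetraspanin best known from B cells, had 1 summit in the 3' untranslated region at nt 1175, with a fold of 7.59 and 15 fragments (8.40 to 24.7). The 3 intervals did not overlap, so the order from Cd53 to Cd63 to Cd37 exceeded counting error.

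Cd200r1 was the remaining CD antigen with a summit. It encodes the inhibitory receptor by which myeloid cells respond to CD200 on other cells. Its summit lay in the 3' untranslated region at nt 1627, with a fold of 18.0 and 37 fragments (26.1 to 51.0). The paralogs Cd200r2, Cd200r3 and Cd200r4 had none, although reads from a shared stretch could be assigned to any of them. In all, 4 of 88 CD genes had a summit, or 4.55%.

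Of 40 genes that fitted the interleukin receptor pattern, 2 had a summit, both in coding sequence. Il2ra, the alpha chain that raises the affinity of the IL-2 receptor, had a fold of 24.2 at nt 853, with 50 fragments (37.1 to 65.9). Il10rb, the chain shared by the receptors of IL-10 and related cytokines, had the lowest fold of all 14 genes, 4.27 at nt 841, with 8 fragments (3.45 to 15.8). The partner chains of these receptors, Il2rb, Il2rg and Il10ra, had no listed summit; they were looked up after the list was seen.

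Of 31 genes that fitted the integrin patterns, some of them not integrin chains, 3 had a summit, or 9.68%. Itga4 and Itgb1, which pair to form a receptor for fibronectin and for VCAM-1 on marrow stroma, had summits of close height in different regions. Itgb1 had a fold of 20.9 in coding sequence at nt 1849, with 43 fragments (31.1 to 57.9). Itga4 had a 3' untranslated summit at nt 7830 with a fold of 19.5 and 40 fragments (28.6 to 54.5), and this position was farther from the transcript start than 96.6% of all 3' untranslated summits in the list. The intervals of the pair overlapped. Itgb2, the beta chain of the leukocyte integrins, had a fold of 11.4 in coding sequence at nt 1816, with 23 fragments (14.6 to 34.5). None of its 4 alpha partners Itgal, Itgam, Itgax and Itgad had a listed summit, a lookup also made after the list was seen.

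**Figure D1:**
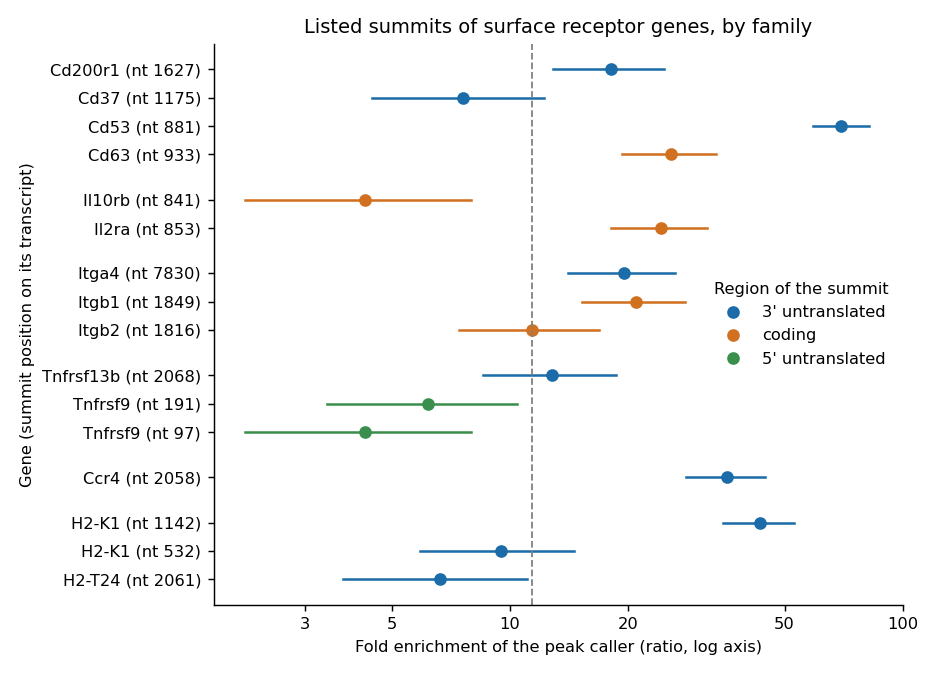
Fold enrichment (horizontal, log axis) of each of the 16 summits, 1 row per summit, grouped by gene family and labelled with the gene and the position in nt on its transcript. Points are the authors' folds, bars the exact Poisson 95% interval of the pile-up on the fold scale, colours the region, and the dashed line the median fold of 11.4 of all 1876 summits. Cd53 at 69.8 lies clear of all others, and Il10rb and the lower Tnfrsf9 summit share the lowest fold of 4.27.

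Among TNF receptor superfamily genes, 2 of 19 had a summit. Tnfrsf13b, a receptor of the B cell survival factors BAFF and APRIL, had a 3' untranslated summit at nt 2068, with a fold of 12.8 and 26 fragments (17.0 to 38.1). Tnfrsf9, a costimulatory receptor of activated T cells, was the only one of the 14 genes with 5' untranslated summits. It had 2, on different transcripts, with a fold of 6.17 at nt 191 and of 4.27 at nt 97. These were 12 and 8 fragments with overlapping intervals (6.20 to 21.0 and 3.45 to 15.8), and they may be 1 site counted on 2 isoforms.

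Of the 11 Ccr and 6 Cxcr genes, Ccr4 had a summit; Cx3cr1, a chemokine receptor outside these symbol patterns that was looked up after the list was seen, had a 3' untranslated summit with a fold of 13.3. Ccr4 binds Ccl17 and Ccl22 and is best known from T helper and regulatory T cells. The fold of Ccr4 was 35.6 in the 3' untranslated region at nt 2058, with 74 fragments (58.1 to 92.9), which ranked 151 of the 1485 genes. None of the 12 Toll-like receptor genes had a listed summit.

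The H2 genes are mostly histocompatibility genes of the mouse, and 2 of 50 had a summit. H2-K1, a classical class I heavy chain that presents peptides to CD8 T cells, had 2 summits, both in the 3' untranslated region. The taller lay at nt 1142 of ENSMUST00000172912 with a fold of 43.2 and 90 fragments (72.4 to 111). The lower lay at nt 532 of ENSMUST00000236469 with a fold of 9.49 and 19 fragments (11.4 to 29.7), and its interval did not overlap that of the taller. Because the transcripts differ, both may be the same site counted on different isoforms, with its fragments split between them. This was not tested, so the difference in height is not read as a difference between sites. H2-T24, a nonclassical class I gene, had a 3' untranslated summit at nt 2061, with a fold of 6.65 and 13 fragments (6.92 to 22.2). Class I genes share long stretches of sequence, so the assignment of these summits to H2-K1 and H2-T24 is uncertain.

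**Figure D2:**
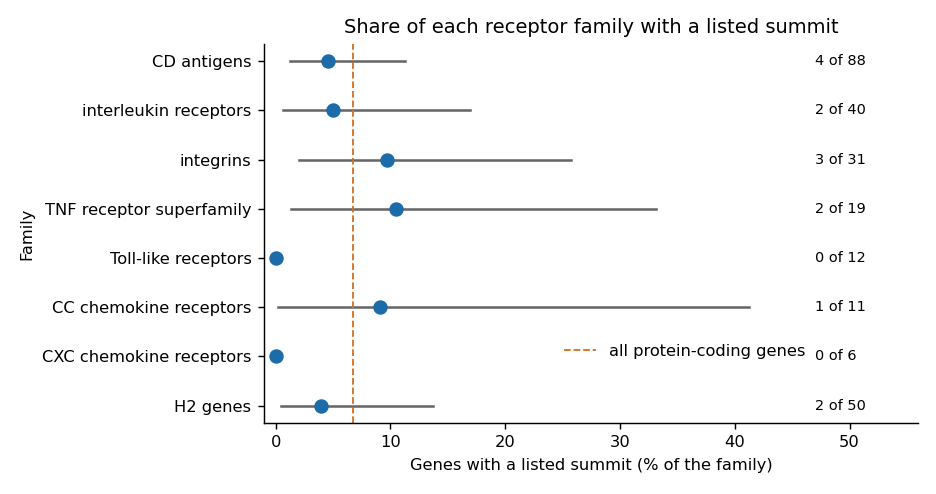
Share of genes with a listed summit (horizontal, percent of the family's genes in the gene table) for 8 families, with the counts at the right. Bars are exact Clopper-Pearson 95% intervals, left out for the families with no summit, and the dashed line is the 6.71% of all protein-coding genes. All 6 intervals drawn span that line. The families also count genes of other types, 12 of them H2 genes, which the line leaves out. Among protein-coding genes alone the H2 share was 5.26%.

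Over all families 14 of 257 genes had a summit, or 5.45% (exact Clopper-Pearson 95% interval 3.01% to 8.97%). Among protein-coding genes at large the share was 6.71%, or 1469 of 21900. With the 13 genes of other types left out, the share was 14 of 244, or 5.74%. The share among surface receptor genes was thus close to the background, and each of the 6 families with a summit had an interval that held the background too. Solute carriers and ABC transporters, another large class of membrane proteins, had a summit on 23 of 425 genes, or 5.41%. A gene with no listed summit may be unexpressed, unacetylated or left out by the filter on the list: its peak numbers ran to 33651, of which 1824, or 5.42%, were listed.

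Heights ran from a fold of 4.27 on Il10rb to 69.8 on Cd53, within a range of 2.85 to 260.6 over the whole list. The median highest fold was 18.7 over the 14 genes, with quartiles of 8.54 and 25.3, and 12.3 over all 1485 genes, with quartiles of 7.12 and 21.4. Of the 14 genes, 5 were at or above the upper quartile of all genes, 4 lay between it and the median, 2 between the median and the lower quartile, and 3 below that. Solute carriers and ABC transporters had a median of 9.97. The order within the 14 genes was loose: of 13 pairs of neighbours in that order, 12 had overlapping intervals, and Cd53 against H2-K1 was the exception. All 16 summits had a q-value of the authors' caller of at most 4.12e-05.

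**Figure D3:**
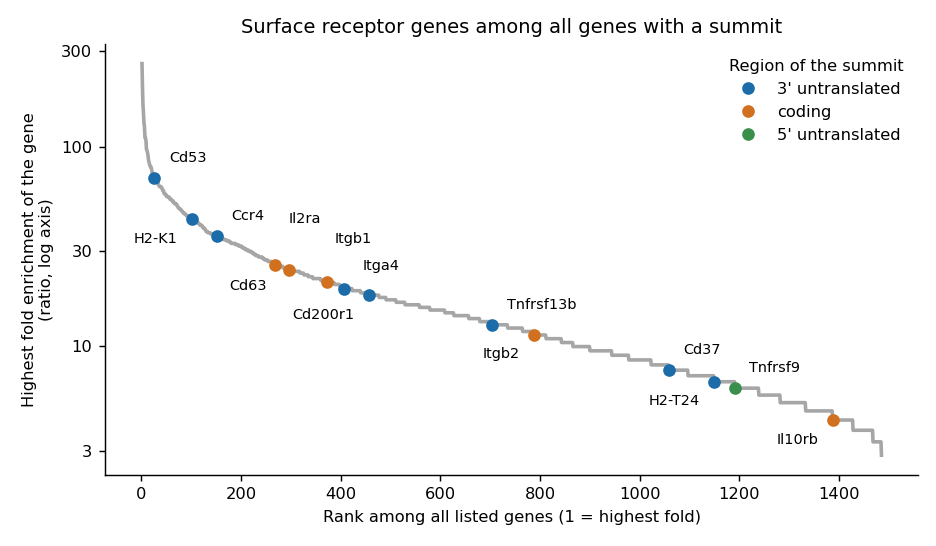
Highest fold enrichment of each of the 1485 listed genes (vertical, log axis) against its rank (horizontal), as a grey line, with the 14 surface receptor genes as points coloured by the region of their highest summit. Cd53 stands at rank 26 and Il10rb at rank 1387, and the others lie between them.

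Of the 16 summits, 9 lay in 3' untranslated regions, or 56.2% (29.9% to 80.2%), against 44.9% of all 1876 summits. Coding sequence held 5, or 31.2% (11.0% to 58.7%), against 48.0% of all summits, and the 5' untranslated region held 2, or 12.5% (1.55% to 38.3%), against 7.09%. All 3 exact Clopper-Pearson intervals included the share in the whole list. By gene, 8 had 3' untranslated summits, 5 coding summits and 1, Tnfrsf9, 5' untranslated summits, and none of these genes had summits in more than 1 region. That depends on leaving out Cd47, which had both coding and 3' untranslated summits. The 3 genes with the highest folds, Cd53, H2-K1 and Ccr4, all had them in the 3' untranslated region. Even so, the median fold was 18.0 for the 3' untranslated summits of these genes and 20.9 for their coding summits; over the whole list these medians were 12.3 and 10.4.

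**Figure D4:**
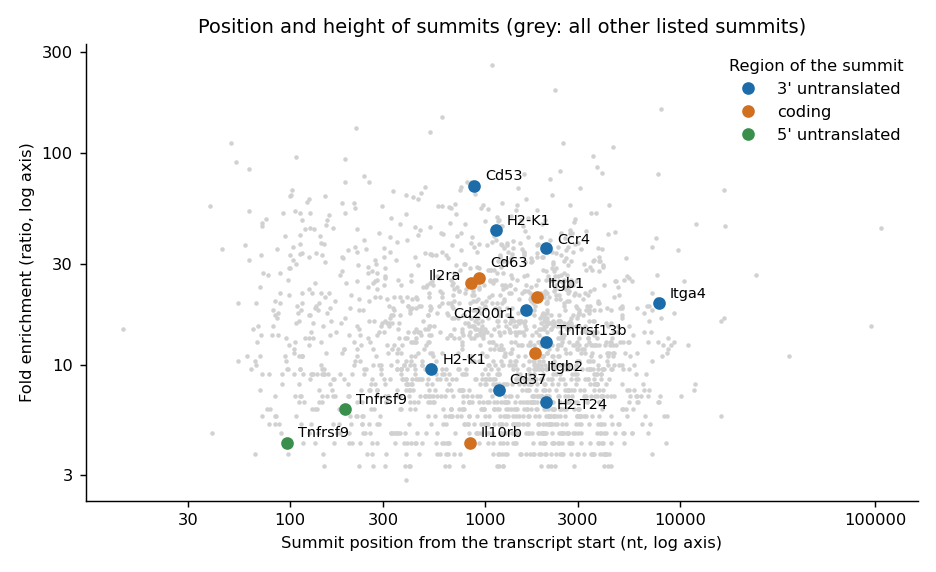
Position of each summit from the transcript start (horizontal, nt, log axis) against its fold enrichment (vertical, log axis); the surface receptor summits are coloured by region and labelled, and all other summits of the list are grey. Both Tnfrsf9 summits are the closest to the start, at nt 97 and nt 191, Itga4 at nt 7830 is the farthest out, and the other summits lie between nt 532 and nt 2068.

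Most of the 14 genes, 12 or 85.7%, had a single listed summit, against 79.9% of all listed genes. This count depends on the filter and on leaving out Cd47, which had several listed summits. The summits of Cd53, Cd63, Il2ra and Cd200r1 carry letters that number them within a peak of several summits. Those letters imply at least 11 summits in the 4 peaks, of which 4 were listed, so these mRNAs had further summits that are not analysed here.

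Lists of surface markers that define blood lineages are short. Their counts of 0 or 1 gene with a summit are therefore not read as lower than the 6.71% of all protein-coding genes. Cd27, Cd36 and Cd93 each stand in more than 1 of these lists. Of 20 myeloid surface genes, 1 had a summit, Itgb2; no summit was listed for Itgam, Cd14, Cd33, Csf1r or Csf3r. Of 25 T, NK and B cell surface genes none had a summit, Cd3e, Cd4 and Cd79a among them. That count depends on the markers chosen: Il2ra, Ccr4, Tnfrsf9, Tnfrsf13b and Cd37, also known from T or B cells, are not in these lists and had summits. The 10 stem and progenitor surface genes, including Kit and Cd34, and the 13 megakaryocyte and erythroid ones, including Itga2b and Tfrc, had none either. The labels call the cells lymphoblastocytes of the bone marrow, and the list could not be used to check that or a myeloid identity, since expression was not measured.

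Lists of related genes outside the symbol patterns covered other tetraspanins, other cytokine receptors, receptor adaptors and antigen presentation. Together 16 of 100 of these genes had a listed summit, or 16.0%, with a median highest fold of 10.4. All protein-coding genes had 6.71%, and all listed genes had a median of 12.3. These lists were picked by hand with earlier results of these data known, and the difference was not tested. Among tetraspanins, 6 of 24 genes had one. Besides the 3 CD antigens these were Tspan4, with 4 summits up to a fold of 16.6, Tspan3 at 14.2 and Tspan14, a partner of the protease Adam10, at 10.4. For all 3 the highest summit was 3' untranslated, as for Cd53 and Cd37.

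Of 22 cytokine receptor genes outside the symbol patterns, 4 had a summit, all with folds below the median of 12.3 of all listed genes. Csf2rb, the signalling chain shared by the receptors of IL-3, IL-5 and GM-CSF, had a coding summit of 9.02. Csf2rb2, its IL-3-specific paralog in the mouse, had a coding summit of 10.4, and reads of this similar pair may be split between them. Ifnar1 and Ifnar2, the chains of the type I interferon receptor, each had a fold of 4.27; that of Ifnar1 was 3' untranslated and that of Ifnar2 5' untranslated.

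Of 20 integrin adaptors and activators, Tln1 alone had a summit. It encodes talin, which binds integrin tails and switches integrins to high affinity. Its coding summit had a fold of 19.5, where Itgb1 had 20.9, Itga4 19.5 and Itgb2 11.4. Genes outside these lists, such as Cdkn1a and Srf, also had a fold of 19.5, and a link between talin and integrin summits was not tested.

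The Toll-like and IL-1 receptor adaptors had 3 of 14 genes with a summit: Ticam1, the TRIF adaptor, at 14.2 in coding sequence, the inhibitor Tollip at 8.54 and the adaptor Myd88 at 5.70, both 3' untranslated. The TNF receptor adaptors had 3 of 12. These were the ubiquitin ligase gene Birc3 at 21.8 and Traf1, which binds the Tnfrsf9 tail, at 9.97, both 3' untranslated, and the death domain adaptor Tradd at 7.12 in coding sequence. Of 16 antigen presentation genes 2 had a summit, both 3' untranslated as on H2-K1. Tap2, a subunit of the transporter that supplies peptides to class I molecules, had a fold of 29.9, and the peptide editor Tapbpl 21.4.

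**Figure D5:**
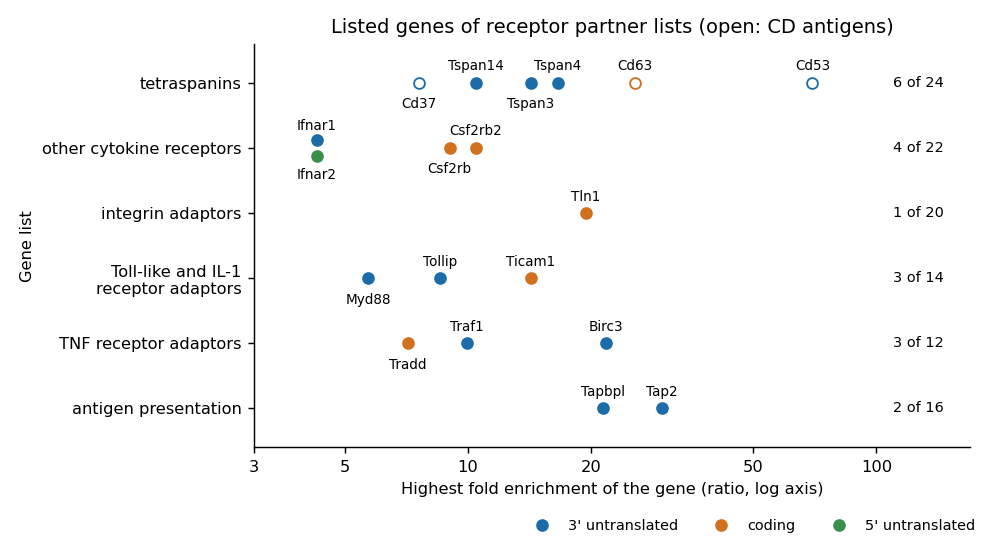
Highest fold enrichment (horizontal, log axis) of each listed gene in 6 lists of partners and other genes related to these receptors, 1 row per list, with the count of listed genes at the right; colours give the region, and open circles mark the CD antigens already described. Cd53 at 69.8 is the highest and Ifnar1 and Ifnar2, drawn apart at the same fold of 4.27, the lowest.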

How the data were processed

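The authors deposited 1 list of summits, each with an Ensembl transcript and gene, a position in nt on the transcript and a region. Its values, per the file headers, are a fold enrichment (a ratio over background) and, on a −log10 scale, the peak caller's p-value and q-value. The submitters' processing notes name cutadapt, Bowtie2, MACS2 and build GRCm39 without versions; the control for peak calling and the filter on the list are not given in the sources used here. Entry names read as a call on both ac4C libraries merged, so no library has a value of its own, and depth per library is unknown.

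Genes and regions were kept as deposited. Of 1485 symbols, 1475 (and all 14 receptor genes) were found in RefSeq's genes for assembly GRCm38.p6, which served for counts of genes and for which genes neighbour each other. The pile-up was computed from the step of the folds; the Poisson tail of that pile-up gave the deposited −log10 p-values to within 0.000474%. Python 3.11.15, pandas 2.3.3 and scipy 1.17.1 were used, and the calculations were tested on simulated data. A gene was counted with at least 1 summit. No test between groups was possible on 1 list, so shares and medians are given beside those of all genes. Exact intervals are given for the listed share, the region shares and the median highest fold of the receptor genes. Every receptor gene with a summit is named, and of the marker lists and the lists of related genes every gene with one. The genes and lists were chosen with earlier results of these data known. Alternatives were a stricter fold or q-value, protein-coding genes only, no H2 genes, only surface receptors, the strongest summit or the mean per gene, and coding summits only.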

Additional observations from a re-analysis of the deposited data

How the results depend on the processing

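No paired analysis was possible because the list pools both ac4C libraries into 1 set of values; leaving out a replicate was not run for the same reason. The number of surface receptor genes with a summit was 10 of 257 with folds, or with −log10 q-values, at or above the median of the list, 12 of 207 without H2 genes, and 14 of 244 among protein-coding genes. It was 14 of 250 without matched genes that are no surface receptor. The share of all protein-coding genes at the stricter fold and q-value cuts was not computed, so 10 of 257 cannot be set beside the 6.71%. The 3' untranslated share ran from 46.2% without H2 genes to 60.0% with folds at or above the list's median, and the coding share from 31.2% as reported to 40.0%. The median fold ran from 15.4 over all summits to 20.9 over coding summits of 5 genes, where all listed genes had 11.4 and 10.9. All these moved by less than the exact binomial interval of the main value or, for counts, by less than 1.5 times. With 16 summits, differences in region share of the size seen here were not detectable.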

Other observations

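The receptor gene with the lowest fold, Il10rb, lies between Ifnar2 and Ifnar1 in the gene order of the RefSeq table, and all 3 had a summit with the same pile-up of 8 fragments and a fold of 4.27. The summits lay in different regions: in coding sequence at nt 841 of Il10rb, in the 5' untranslated region at nt 209 of Ifnar2 and in the 3' untranslated region at nt 3797 of Ifnar1. A pile-up of 8 was held by 56 of the 1876 summits, or 2.99%. Both neighbouring protein-coding genes had a summit for 1 of the 14 receptor genes and for 18 of 1469 listed protein-coding genes, or 1.23%. At least 1 neighbour had a summit for 5 of the 14, against 262 of 1469, or 17.8%. The neighbours of the other 4 were Vps52 beside H2-K1, Ube2e3 beside Itga4, Usp22 beside Tnfrsf13b and Park7 beside Tnfrsf9. This arrangement was noticed in the data and not tested, and strand was not considered.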
